A study of Mus musculus with 12 samples.

Results

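Intercalated disc junction genes encode the proteins that join heart muscle cells end to end. The 10 genes described here were chosen by symbol in the table of gene counts: Dsp, Dsg2, Dsc2, Pkp2, Jup, Cdh2, Ctnna3, Ctnnb1, Tjp1 and Cxadr. All 10 were found among 39331 gene entries, and all 10 were among the 15602 genes abundant enough to be tested. They were read in 6 wild-type (WT) and 6 Lemd2 knock-in (KI) hearts of untreated C57BL/6N mice at 9 months of age, by RNA sequencing of whole heart tissue. In the KI mice arginine replaces leucine as residue 13 of LEMD2, which sits in the inner membrane of the nuclear envelope. The labels do not say whether the KI mice carry it on 1 or both copies of the gene.

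The intercalated disc holds desmosomes, which tie the ends of neighbouring cardiomyocytes to the intermediate filaments, and adherens junctions, which tie them to actin. In the heart both kinds of junction are partly merged, and gap junctions and tight junction proteins lie beside them. Loss of desmosomal proteins is a known cause of arrhythmogenic cardiomyopathy in humans, and beta-catenin and plakoglobin also have roles outside the junction, in Wnt signalling.

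Total counts ranged from 38.3 to 44.6 M (units of 1000000) in WT and from 27.9 to 42.9 M in KI. KI 3, KI 4 and KI 5 had the lowest totals, at 27.9, 34.9 and 31.8 M, and their titles share an age tag that the other KI titles lack. Of those, the title of KI 2 ends in the tag old and that of KI 6 in the tag new, which the labels do not explain. The titles of KI 1 and KI 2 join a pair of numbers, and the labels do not say what these numbers count or whether material was pooled, so p-values measure the spread between these 12 libraries. Mitochondrially encoded genes held 34.0% to 40.4% of all counts in WT and 30.9% to 33.9% in KI. The 10 cardiomyocyte markers, among them Myh6 and Tnnt2, summed to 51673 CPM (counts per 1000000 counts, scaled by TMM) or more in every library, while the 6 epithelial markers, among them Epcam and Krt5, summed to 0.503 CPM or less. Epithelia also build desmosomes, and their defining markers were thus at or near 0 here. In whole tissue, fewer cells of a type and less RNA per cell cannot be told apart. Lemd2 itself was at 27.4 ± 1.97 CPM in the WT hearts and lower in the KI hearts, at 21.3 ± 2.88 CPM (SD; log2 fold change -0.36, SE 0.09, edgeR adjusted p = 0.0213). It missed the threshold under scaling by library total (adjusted p = 0.161) and with only KI 3 to 5 against WT (0.0631). A gene count cannot show the substitution itself.

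KI 6 stood apart from the other libraries in atrial cardiomyocyte markers. Myl7, an atrial myosin light chain, was at 145 CPM in KI 6 and at 0.426 CPM or less in every other library. Sln, which encodes sarcolipin, was at 52.4 CPM there and at 0.200 CPM or less elsewhere, and Myl4 at 223 CPM against 5.31 CPM or less. The 6 atrial markers summed to 53.9 to 399 CPM in WT, 380 CPM in KI 1, 212 CPM in KI 2, 1275 to 1633 CPM in KI 3 to 5 and 2352 CPM in KI 6. Of the 4 tested, 2 were higher in KI, against 4.41% of all genes tested. Nppa, which encodes atrial natriuretic peptide and is also made by stressed ventricle, had a log2 fold change of 2.18 (SE 0.58, edgeR adjusted p = 0.0341), and 1.97 (0.0628) without KI 6. Dkk3, a secreted protein of the Dickkopf family, was at 2.83 (SE 0.67, edgeR adjusted p = 0.0223), and at 1.603 (0.0151) without KI 6. KI 6 also had the highest summed fibroblast markers of the 12 libraries, at 3166 CPM against 2339 CPM or less elsewhere. Its mural sum was the highest too, at 1168 CPM against 939 CPM or less. So were its endothelial (917 CPM), mesothelial (19.6 CPM) and Schwann cell (22.3 CPM) sums, next to 877, 17.0 and 19.4 CPM elsewhere. Its cardiomyocyte and macrophage sums were not the highest. The part of atrial tissue and of these other cell types in the levels of the junction genes was not tested.

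Promoter sequences from RefSeq (GRCm38.p6), running from 250 bases before to 50 after a gene start, were at hand for 5 of the 10 genes. Those of Dsp, Jup and Ctnnb1 are shown because only these members changed side of the threshold, all upward, with the scaling of the libraries. Using library totals put 19.0% of all genes tested past it in the same direction. The median log2 fold change of all genes rose with it, from 0.01 to 0.16. The Dsp promoter lies at chr13:38151044-38151343 on the plus strand, that of Jup at chr11:100397741-100398040 on the minus strand and the first of the 2 listed for Ctnnb1 at chr9:120933150-120933449 on the plus strand. Capitals mark the GC box GGGCGG, the CCAAT box CCAAT and the TATA box TATAAA, each searched on both strands.
Dsp: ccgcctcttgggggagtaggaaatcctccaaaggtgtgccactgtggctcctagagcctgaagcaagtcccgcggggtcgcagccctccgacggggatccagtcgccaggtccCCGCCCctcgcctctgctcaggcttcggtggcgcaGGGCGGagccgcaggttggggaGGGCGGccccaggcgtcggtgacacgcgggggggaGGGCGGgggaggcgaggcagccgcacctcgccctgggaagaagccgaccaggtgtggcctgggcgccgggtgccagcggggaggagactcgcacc
Jup: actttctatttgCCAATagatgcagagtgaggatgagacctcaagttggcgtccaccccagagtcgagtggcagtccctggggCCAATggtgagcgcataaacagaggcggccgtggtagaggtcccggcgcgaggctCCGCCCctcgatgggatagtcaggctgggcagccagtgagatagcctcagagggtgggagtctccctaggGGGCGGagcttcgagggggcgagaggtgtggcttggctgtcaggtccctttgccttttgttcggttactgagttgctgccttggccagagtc
Ctnnb1: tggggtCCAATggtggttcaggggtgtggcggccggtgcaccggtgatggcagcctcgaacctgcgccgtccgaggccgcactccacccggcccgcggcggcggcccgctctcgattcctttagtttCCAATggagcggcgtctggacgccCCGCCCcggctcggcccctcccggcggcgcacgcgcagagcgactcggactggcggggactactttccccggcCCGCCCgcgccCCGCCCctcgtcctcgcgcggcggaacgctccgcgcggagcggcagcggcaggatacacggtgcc
The Dsp window held 4 GC boxes, that of Jup held 2 with 2 CCAAT boxes, and that of Ctnnb1 held 3 with 2 CCAAT boxes. None of these 3 windows held the TATA box letters, while the second Ctnnb1 window, at chr9:120933328-120933627, held 1 TATA box, 3 GC boxes and no CCAAT box. Over all 32851 promoter windows of the same length, 35.7% held a GC box, 37.4% a CCAAT box and 13.6% a TATA box. GC content was 73.0% for Dsp, 60.7% for Jup and 75.3% for Ctnnb1, against a median of 52.7% over all windows.

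No junction gene passed the threshold between KI and WT hearts. Of the 10 genes, 0 were higher and 0 lower at an edgeR adjusted p of 0.05, against a background of 4.41% of all genes tested called higher and 4.34% called lower. At an unadjusted p under 0.05 there were 2, Cxadr and Dsc2, against 25.8% of all genes. DESeq2 and voom each called 1 of the 10 lower, Cxadr, where they called 6.85% and 8.11% of all genes lower. The median log2 fold change of the 10 genes was -0.08, with 3 positive and 7 negative, and that of all genes tested was 0.01. Without KI 6 edgeR also called 0 of the 10, with 3 at an unadjusted p under 0.05, where 3.44% of all genes were called higher and 3.41% lower. The KI and WT values overlapped for every one of the 10, while 4.36% of all genes tested had values that did not overlap.

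**Figure D1:**
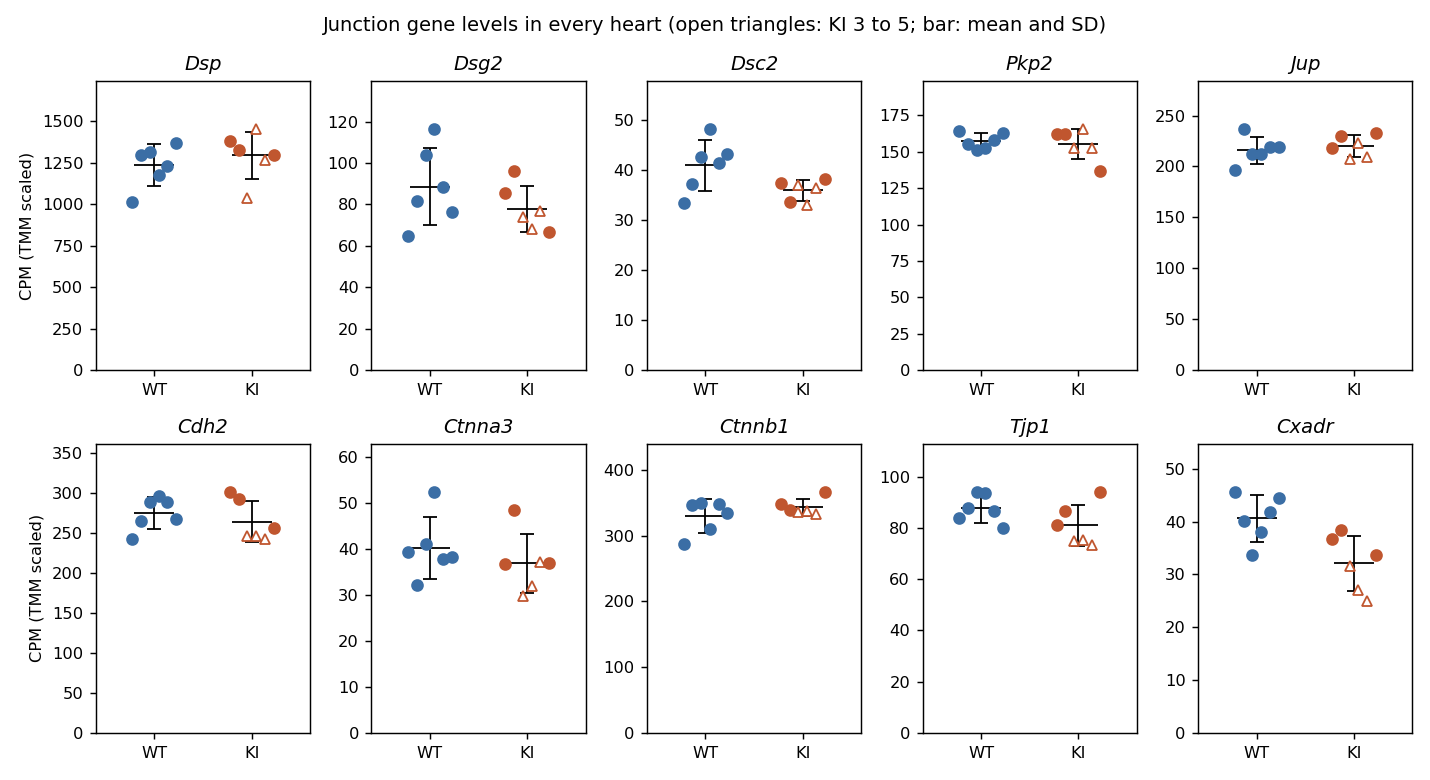
Level of each junction gene in CPM (TMM scaled, linear axis from 0) in 6 WT and 6 KI hearts, with 1 point per library, open triangles for KI 3 to 5, and bars for the mean and SD. WT and KI points overlap in every panel, and for Cxadr all 6 KI points lie below the WT mean of 40.6 CPM.

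The desmosomal plaque was made up of Dsp, Pkp2 and Jup. Dsp encodes desmoplakin, which links the plaque to desmin filaments, and was the most abundant of the 10. It ranged from 1014 to 1367 CPM in WT (median 1264) and from 1037 to 1451 CPM in KI (median 1312). The low end of each range was a single library, WT 1 and KI 3, and the ranges overlapped broadly. The log2 fold change of Dsp was 0.07 (SE 0.09, 95% interval -0.12 to 0.25, edgeR adjusted p = 0.664).

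Pkp2 encodes plakophilin 2, an armadillo protein of the plaque. It ranged from 151 to 164 CPM in WT (median 157) and from 137 to 166 CPM in KI (median 158). KI 6 was the lowest of the 12 libraries and KI 4 the highest, so the KI group held both ends, and without KI 6 the log2 fold change was 0.02. Over all libraries the log2 fold change was -0.02 (SE 0.05, 95% interval -0.13 to 0.09, adjusted p = 0.865), an interval of 0.915-fold to 1.07-fold under TMM scaling. Scaled by library totals, Pkp2 was at 0.13 (95% interval 0.008 to 0.25, edgeR adjusted p = 0.115), so the interval depends on the scaling. Jup encodes plakoglobin, the catenin shared by desmosomes and adherens junctions. It ranged from 196 to 237 CPM in WT (median 216) and from 207 to 233 CPM in KI (median 220). All KI values of Jup lay inside the WT range. Jup had a log2 fold change of 0.03 (SE 0.05, 95% interval -0.08 to 0.14, edgeR adjusted p = 0.789).

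The desmosomal cadherins Dsg2 and Dsc2, which span the membrane and bind their counterparts on the next cell, were less abundant. Dsg2, which encodes desmoglein 2, ranged from 64.8 to 116 CPM in WT (median 85.0) and from 66.8 to 95.9 CPM in KI (median 75.6). The WT group alone spanned WT 1 at the low end and WT 4 at the high end, and every KI value of Dsg2 fell between them. The log2 fold change of Dsg2 was -0.19 (SE 0.13, edgeR adjusted p = 0.401), with a 95% interval of -0.47 to 0.10, the widest of the 10.

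Dsc2, which encodes desmocollin 2, ranged from 33.4 to 48.2 CPM in WT (median 42.0) and from 33.1 to 38.3 CPM in KI (median 36.8). All 6 KI values lay below the WT mean of 41.0 CPM, but WT 1 and WT 2 lay among them. Dsc2 had a log2 fold change of -0.19 (SE 0.08, 95% interval -0.35 to -0.02, edgeR adjusted p = 0.142). Without WT 1 it was -0.24 with an edgeR adjusted p of 0.0417, the 1 case of 12 in which leaving out a library brought Dsc2 past the threshold. Scaled by library totals it was -0.04.

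Among the adherens junction genes, Cdh2 encodes N-cadherin, the classical cadherin of cardiomyocytes. It ranged from 242 to 295 CPM in WT (median 278) and from 243 to 301 CPM in KI (median 251). KI 1 and KI 2 stood at 301 and 292 CPM, at the top of the 12 with WT 4, while KI 3, KI 4 and KI 5 stood at 246, 246 and 243 CPM, close to WT 1. Over all libraries Cdh2 had a log2 fold change of -0.06 (SE 0.07, 95% interval -0.21 to 0.09, adjusted p = 0.662).

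Ctnnb1 encodes beta-catenin, which binds the tail of N-cadherin and also acts with TCF factors in Wnt signalling. It ranged from 288 to 349 CPM in WT (median 341) and from 333 to 367 CPM in KI (median 338). All 6 KI libraries lay above the WT mean of 330 CPM, but 4 of the 6 WT libraries lay among them. The log2 fold change was 0.06 (SE 0.06, 95% interval -0.06 to 0.18, adjusted p = 0.553).

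Ctnna3 encodes alpha-T-catenin, which links beta-catenin and plakoglobin to actin and binds plakophilin 2. Its gene spans 1574 kb, and since reads were counted over whole gene spans, its count can include reads from introns. Ctnna3 ranged from 32.2 to 52.4 CPM in WT (median 38.8) and from 29.8 to 48.6 CPM in KI (median 36.9). WT 4 and KI 2 stood highest in their groups, and the log2 fold change was -0.12 (SE 0.12, 95% interval -0.39 to 0.14, adjusted p = 0.562).

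Cxadr and Tjp1 stand for the tight junction side of the disc. Cxadr encodes the coxsackievirus and adenovirus receptor, an immunoglobulin-like adhesion protein of the disc that binds the scaffold ZO-1. Cxadr ranged from 33.6 to 45.6 CPM in WT (median 41.0) and from 25.0 to 38.4 CPM in KI (median 32.6). All 6 KI values lay below the WT mean of 40.6 CPM, KI 3 to 5 and no other library lay below the lowest WT value, and KI 6 stood at 33.7 CPM beside that value. The log2 fold change was -0.34 (SE 0.11, 95% interval -0.57 to -0.11), and its edgeR adjusted p of 0.0622 missed the threshold. Tjp1 encodes ZO-1 itself and ranged from 79.9 to 94.1 CPM in WT (median 87.3) and from 73.4 to 94.1 CPM in KI (median 78.3). KI 3 to 5 lay below every WT library for Tjp1 while KI 6 stood level with the highest WT, and the log2 fold change over all libraries was -0.11 (SE 0.07, 95% interval -0.26 to 0.03, adjusted p = 0.308), or -0.16 without KI 6 (adjusted p = 0.125).

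Cxadr was the member whose call changed most often. DESeq2 gave -0.34 with an adjusted p of 0.0266 and voom with quality weights -0.42 with an adjusted p of 0.0203. Without KI 1 the edgeR value was -0.39 (adjusted p = 0.0475) and without KI 2 it was -0.40 (0.0367), while the other 10 fits that left out 1 library stayed above the threshold, up to 0.127 without KI 4. Scaled by library totals, Cxadr was at -0.20 (adjusted p = 0.207). The call for Cxadr thus depended on the tool and on which KI libraries were present, and the size of its difference on the scaling.

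The 3 KI libraries with the age tag were then set against the other 3, which do not share a tag. No WT title carries the age tag. With only KI 3 to 5 against WT, genotype thus cannot be told apart from what the tag marks, or from depth. With only KI 3 to 5 against WT, Cxadr was at -0.56 (SE 0.10, edgeR adjusted p = 0.00743) and Tjp1 at -0.25 (SE 0.06, adjusted p = 0.0278), so 2 of 10 members were lower, against 7.44% of all genes called lower in that fit. With KI 1, 2 and 6 against WT, Cxadr was at -0.16 (adjusted p = 0.390) and Tjp1 at -0.01 (0.973), with 0 of 10 members called in edgeR, 0 at an unadjusted p under 0.05, where 0.426% of all genes were called higher and 0.138% lower. Cdh2 was at -0.18 (adjusted p = 0.107) in the first fit and 0.04 (0.820) in the second, and Ctnna3 at -0.30 (0.139) and 0.02 (0.962).

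The difference between the KI subsets was tested itself, in a fit chosen after the data were seen. Cxadr averaged 27.9 ± 3.31 CPM in KI 3 to 5 and 36.3 ± 2.39 CPM in KI 1, 2 and 6 (SD, n = 3 each), a log2 difference of -0.38 (SE 0.11, edgeR adjusted p = 0.110). Tjp1 averaged 74.7 ± 1.09 and 87.4 ± 6.46 CPM (SD; log2 difference -0.23, SE 0.07, adjusted p = 0.133). Without KI 6 the log2 differences were -0.43 for Cxadr (adjusted p = 0.134) and -0.17 for Tjp1 (0.288). With KI 6 neither passed the threshold, nor did any other member, where 0.333% of all genes were called higher and 0.474% lower in KI 3 to 5. Lemd2 stood in the opposite order, at 23.7 ± 1.18 CPM in KI 3 to 5 and 18.9 ± 1.39 CPM in KI 1, 2 and 6 (SD; adjusted p = 0.0789).

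Depth and some cell type markers also differed along this split. KI 3 to 5 were the 3 shallowest libraries. The counts of markers below are for all KI against WT, where 4.41% of all genes were called higher and 4.34% lower. In that fit 25.8% of all genes had an unadjusted p under 0.05. The 8 macrophage and leukocyte markers summed to 240 to 288 CPM in KI 3 to 5, below the 328 to 358 CPM of KI 1, 2 and 6. In WT they summed to 210 to 276 CPM apart from WT 1, at 376 CPM. Of the 8, 0 were called in edgeR and 4 had an unadjusted p under 0.05. The summed atrial markers of KI 3 to 5 lay between those of KI 1 and 2 and that of KI 6, as given above. Nppa held most of these sums in KI 3 to 5, at 1257 to 1612 CPM. Dkk3 was at 5.86 to 12.9 CPM there, against 3.64 CPM or less in WT. In the same libraries Myl7 was at 0.177 CPM or less and Sln at 0.0296 CPM or less, inside their WT ranges. Stard10 was at 7.18 to 7.64 CPM in KI 3 to 5, and KI 1 to 5 all lay below its lowest WT value of 13.3 CPM. The other marker sums overlapped between the KI subsets. The summed cardiomyocyte markers ranged from 51673 to 56628 CPM in KI 3 to 5, from 54179 to 59107 CPM in KI 1, 2 and 6 and from 54418 to 64093 CPM in WT. Of the 10, Tnni3 and Pln were called lower in KI, and 3 had an unadjusted p under 0.05. The 8 endothelial markers summed to 752 to 778 CPM in KI 3 to 5 and 696 to 917 CPM in the other KI libraries, inside or around the WT range of 714 to 877 CPM, with 0 of 8 called in edgeR and 0 at an unadjusted p under 0.05. The 8 fibroblast markers summed to 1870 to 2339 CPM in KI 3 to 5 and to 1497 to 1817 CPM in WT. Their sums were 1509 CPM in KI 2, 2128 CPM in KI 1 and 3166 CPM in KI 6. Of the 8, Col1a1 and Col1a2 were called higher and 6 had an unadjusted p under 0.05, with a median log2 fold change of 0.40. The 8 mural markers summed to 741 to 857 CPM in KI 3 to 5, 738 to 1168 CPM in the other KI libraries and 864 to 939 CPM in WT, and the 5 Schwann cell markers to 11.3 to 22.3 CPM in KI and 12.8 to 18.3 CPM in WT, with 0 called in edgeR in either list and 1 and 0 at an unadjusted p under 0.05. The 9 mesothelial markers summed to 8.19 to 19.6 CPM in KI and 5.77 to 16.1 CPM in WT, and of the 2 tested Krt18, a keratin, was higher, at 0.178 CPM in WT and 1.21 CPM in KI on average (log2 fold change 2.76, SE 0.52, edgeR adjusted p = 0.00802). The other tested, Wt1, was not called, at 9.10 CPM in WT and 9.88 CPM in KI on average (0.11, SE 0.26, edgeR adjusted p = 0.832). The part of depth and of these cell types in the levels of Cxadr and Tjp1 was not tested.

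**Figure D2:**
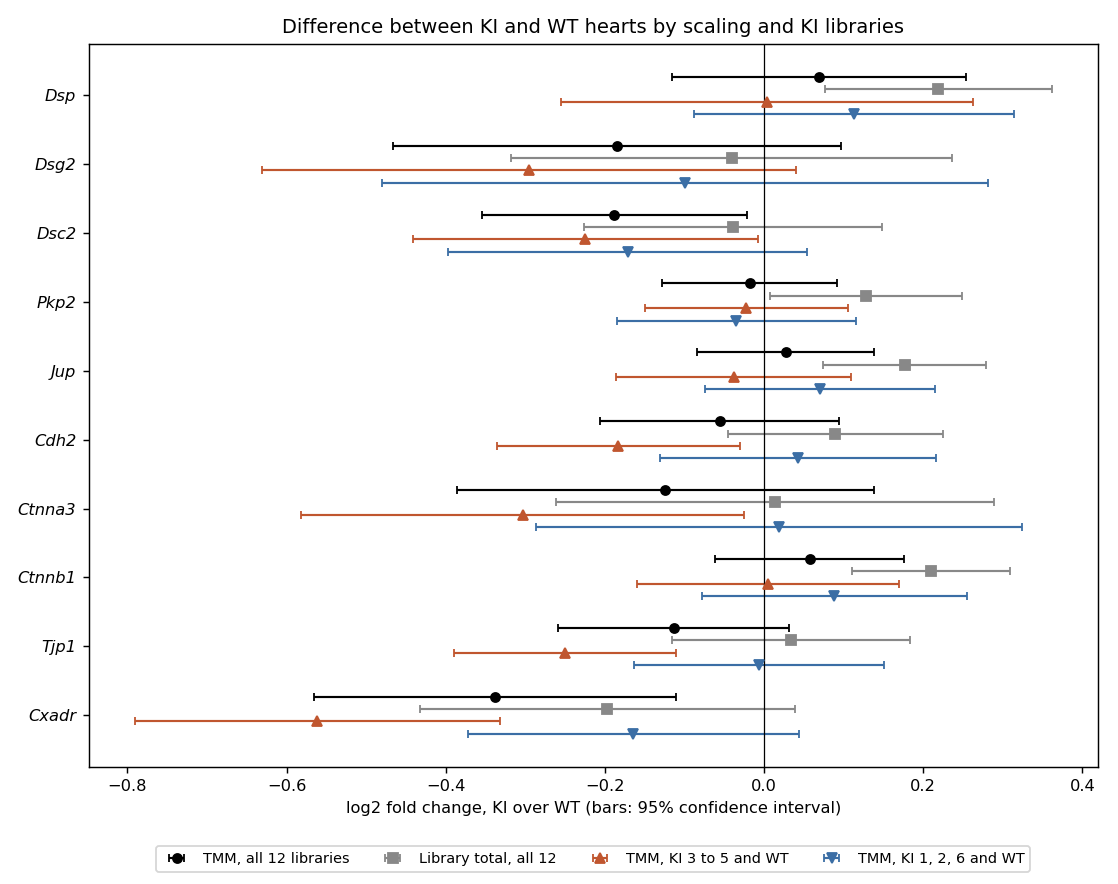
Log2 fold change of KI over WT for each junction gene with its 95% confidence interval, under TMM scaling and under scaling by library total with all 12 libraries, and with KI 3 to 5 or KI 1, 2 and 6 alone against WT. Cxadr, Dsg2 and Dsc2 lie left of 0 under every setting drawn. The Cxadr interval crosses 0 under scaling by library total and with KI 1, 2 and 6 alone. Scaling by library total moves all 10 genes to the right.

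The scaling of the libraries moved all 10 genes. Under scaling by library total the median log2 fold change of all genes was 0.16 in place of 0.01, and that of the 10 members was 0.06 in place of -0.08. Ctnnb1 was then at 0.21 (SE 0.05, edgeR adjusted p = 0.00914), Jup at 0.18 (SE 0.05, 0.0216) and Dsp at 0.22 (SE 0.07, 0.0344), so that 3 of 10 were higher, against 19.0% of all genes. These 3 values stand beside the median of 0.16 for all genes in the same fit. Leaving the genes of the mitochondrial chromosome out before TMM scaling gave a median of -0.08 for the members and 0 calls. As a share of each library's counts outside the mitochondrial chromosome, the 10 genes together held 0.328% to 0.400% in WT and 0.360% to 0.410% in KI.

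Ratios of 2 genes within a library do not depend on this scaling, and 5 were compared. The Tjp1 to Cxadr ratio ranged from 1.80 to 2.80 in WT (median 2.13) and from 2.21 to 2.94 in KI (median 2.58). It was above the WT mean in 6 of 6 KI libraries on the log2 scale, but WT 3 stood at 2.80 among the highest KI values. The log2 difference was 0.23, beside an SD of 0.25 in WT and 0.18 in KI. It did not pass the threshold (two-sided exact permutation p = 0.0952, adjusted over the 5 ratios 0.476).

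The other ratios differed by less than the SD of either group. The Ctnnb1 to Jup ratio, of the 2 armadillo catenins that compete for cadherin tails, was 1.53 ± 0.0757 in WT and 1.56 ± 0.0586 in KI (SD, n = 6 each, exact permutation p = 0.398). Its narrow spread held in every library, from 1.47 to 1.65. The Pkp2 to Dsp ratio was 0.129 ± 0.0171 in WT and 0.121 ± 0.0141 in KI (SD, exact permutation p = 0.403), and the Dsc2 to Dsg2 ratio 0.472 ± 0.0594 and 0.470 ± 0.0733 (SD, exact permutation p = 0.942). The Ctnna3 to Ctnna1 ratio, of alpha-T-catenin to the widespread alpha-E-catenin, was 0.0880 ± 0.0193 in WT and 0.0837 ± 0.0173 in KI (SD, exact permutation p = 0.693). Their p-values adjusted over the 5 ratios ranged from 0.671 to 0.942.

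**Figure D3:**
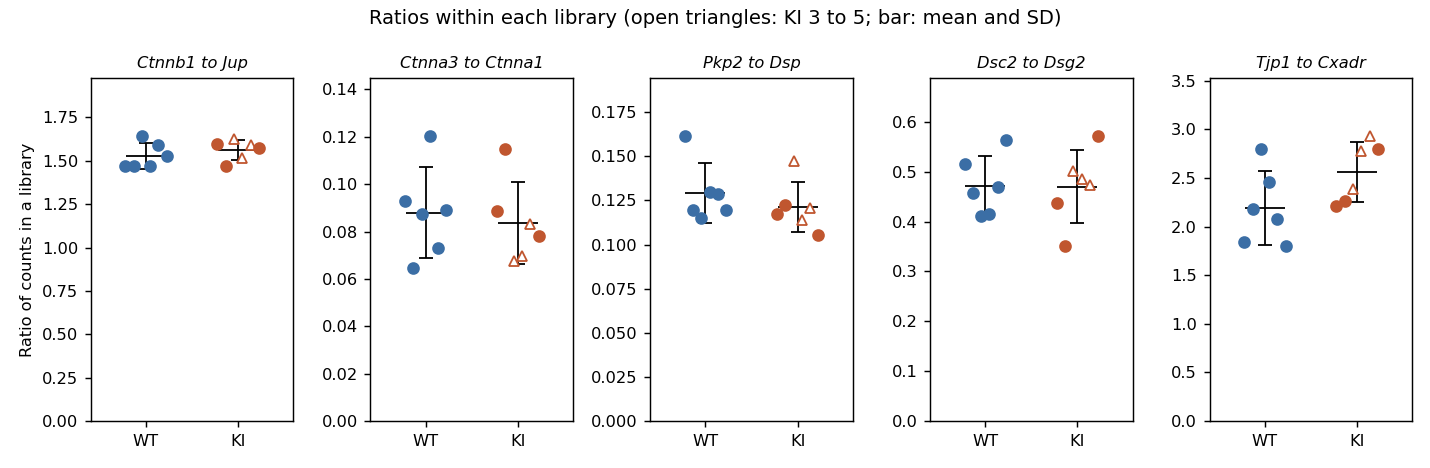
Ratio of the counts of 2 genes within each library (linear axis from 0) for 5 fixed pairs, with 1 point per library, open triangles for KI 3 to 5, and bars for the mean and SD of 6 libraries. The groups overlap in all 5 panels, and the Tjp1 to Cxadr ratio shows the largest shift, from a WT mean of 2.19 to a KI mean of 2.56.

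To set the genes in order, CPM was divided by the length of each gene's merged exons in GENCODE M21 (GRCm38). Dsp stood first at 128 ± 13.1 CPM per kb in WT (SD, n = 6), and Ctnnb1 second at 63.6 ± 4.86 CPM per kb. Neither range touched that of the next gene, in WT or in KI. Cdh2 (34.0 ± 2.49), Jup (33.5 ± 2.05) and Pkp2 (29.4 ± 1.01 CPM per kb) followed, and the WT ranges of neighbours in this order overlapped. Tjp1 (11.2 ± 0.71), Dsg2 (10.7 ± 2.26), Dsc2 (7.77 ± 0.97), Ctnna3 (5.56 ± 0.92) and Cxadr (5.49 ± 0.59 CPM per kb) formed the lower end, again with overlapping neighbours. The order by mean was the same in KI except that Jup (34.2 CPM per kb) and Cdh2 (32.7 CPM per kb) changed places, and Cxadr stayed last at 4.34 ± 0.71 CPM per kb. Intron reads enter these levels without their length.

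**Figure D4:**
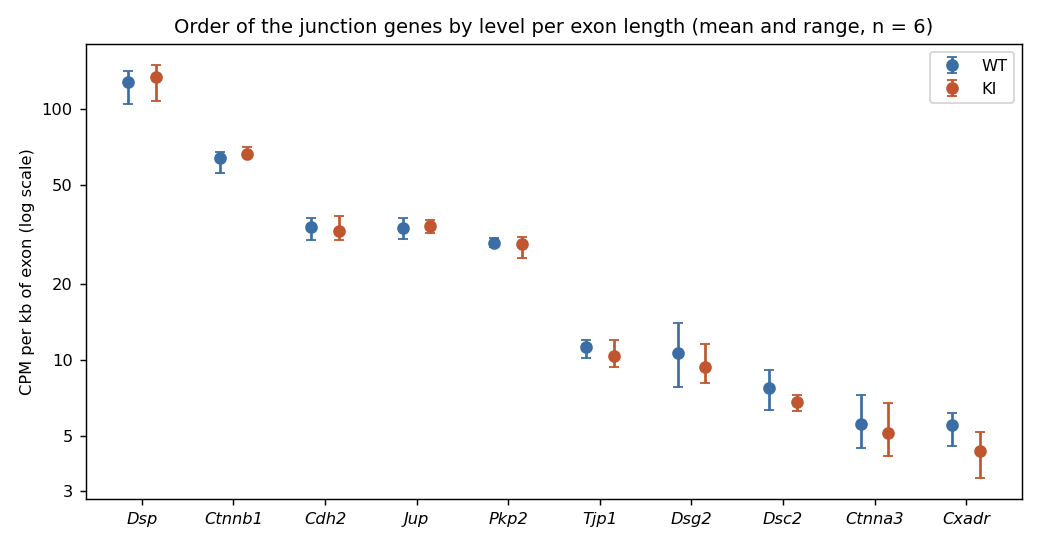
Mean level of each junction gene in CPM per kb of exon (log scale) in WT and KI, with bars for the range of 6 libraries, ordered by the WT mean. Dsp stands apart at the top in both groups, and the order is the same in KI apart from Cdh2 and Jup.

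The members did not vary as 1 block across the 12 hearts. Over 45 pairs of members, Pearson's r of log2 CPM ranged from -0.46 to 0.83 with a median of 0.16, and 35 pairs were positive. The 1 pair past the threshold was Dsg2 with Cdh2, the desmosomal and the classical cadherin (r = 0.83, permutation p = 0.00088, adjusted over 45 pairs 0.0396). By Spearman's rho it missed the adjusted threshold (rho = 0.81, permutation p = 0.0021, adjusted 0.0945). The relation of Dsg2 and Cdh2 was 0.93 within WT and 0.78 within KI, 0.83 without WT 3 and WT 4, the libraries farthest from the median of Dsg2, and 0.72 under scaling by library total. Both genes lie on chromosome 18 (Dsg2 at 20558074 to 20604526, plus strand, and Cdh2 at 16588877 to 16809246, minus strand, GRCm38.p6). Dsc2 lies on chromosome 18 as well, at 20030633 to 20059554 on the minus strand, nearer to Dsg2 than Cdh2 does. The pair of Dsg2 with Dsc2 did not pass the threshold (r = 0.65, permutation p adjusted over 45 pairs 0.212). The difference between these correlations, and any part of position in them, was not tested.

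The other pairs named had the next smallest p, and none was past the adjusted threshold. Jup with Ctnnb1 had r = 0.73 (rho = 0.63, permutation p = 0.00595 and 0.0325, adjusted 0.134 and 0.403), and r = 0.52 without WT 1 and WT 2. Dsp with Jup had r = 0.69 (rho = 0.56, permutation p = 0.0132 and 0.0631, adjusted 0.149 and 0.403), and 0.25 without KI 3 and WT 1, so the relation rests on those libraries. Dsg2 with Ctnna3 had r = 0.69 (rho = 0.55, permutation p = 0.0129 and 0.0712, adjusted 0.149 and 0.403), and 0.45 without WT 3 and WT 4. Dsg2 with Dsc2 had r = 0.65 (rho = 0.53, permutation p = 0.0236 and 0.0794, adjusted 0.212 and 0.403), and 0.22 without the same pair of libraries. Within KI alone Dsg2 and Dsc2 had r = -0.23, against 0.85 within WT.

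**Figure D5:**
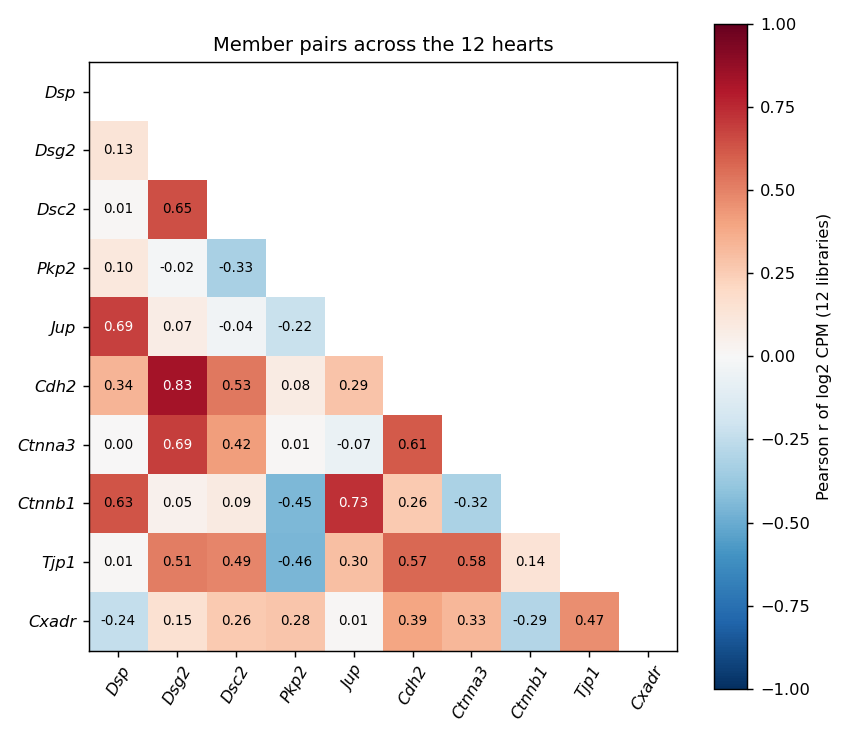
Pearson's r of log2 CPM over 12 libraries for each of the 45 pairs of junction genes, red for positive and blue for negative. Dsg2 with Cdh2 is the highest at 0.83, and 10 pairs are negative.

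Other genes of the junctions were read from fixed lists. Over all genes tested, 4.41% were called higher, 4.34% lower and 25.8% had an unadjusted p under 0.05 in edgeR. The counts for each list stand beside these shares. Of 10 other desmosome genes, mostly of stratified epithelia, 1 was abundant enough to be tested, Perp, which encodes a desmosomal membrane protein. Perp was at 106 ± 12.0 CPM in WT and 112 ± 6.74 CPM in KI (SD; log2 fold change 0.08, SE 0.07, adjusted p = 0.518), and was called higher under scaling by library total (0.23, adjusted p = 0.00840). Of 20 other adherens junction and area composita genes tested, 0 were higher and 1 was lower, with 2 at an unadjusted p under 0.05 and a median of 0.03. That gene was Ctnnal1, which encodes an alpha-catenin-like protein and fell from 23.1 ± 2.35 CPM in WT hearts to 19.0 ± 1.13 (SD; log2 fold change -0.28, SE 0.07, edgeR adjusted p = 0.0258). Ctnnal1 kept its call in 8 of 12 fits that left out 1 library (highest adjusted p 0.0583, without KI 4) and lost it under scaling by library total (-0.14, adjusted p = 0.242).

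Gap junction and disc channel genes had 2 of 11 lower and 0 higher, against 4.34% and 4.41% of all genes tested. Of the 11, 5 had an unadjusted p under 0.05, against 25.8% of all genes. Their median of -0.08 turned to 0.07 under scaling by library total. Kcnj2 encodes an inward rectifier potassium channel and ranged from 25.9 to 44.0 CPM in WT (median 38.9) and from 18.1 to 30.8 CPM in KI (median 23.3). All 6 KI values of Kcnj2 lay below the WT mean, but WT 1 lay among them. It fell by 0.67 on the log2 scale (SE 0.14, edgeR adjusted p = 0.0131), kept its call in 12 of 12 fits that left out 1 library and was at -0.53 (adjusted p = 0.0170) under scaling by library total. Tmem65, whose protein lies at the disc and binds connexin 43 in the mouse, fell from 186 ± 18.6 to 152 ± 15.6 CPM (SD; -0.29, SE 0.08, edgeR adjusted p = 0.0375). Tmem65 kept its call in 4 of those 12 fits (highest adjusted p 0.0845, without KI 4) and lost it under scaling by library total (0.166). Gja1, which encodes connexin 43 and is named here after its values were seen, was at 431 ± 78.5 CPM in WT and 338 ± 74.6 CPM in KI (SD; -0.35, SE 0.14, adjusted p = 0.138). Tight junction and CAR-like genes had 1 of 13 lower and 3 at an unadjusted p under 0.05. The 1 called was Jam2, which encodes a junctional adhesion molecule found in endothelium. Jam2 fell from 183 ± 10.5 to 157 ± 11.1 CPM (SD; -0.22, SE 0.06, edgeR adjusted p = 0.0306), kept its call in 5 of the 12 fits and lost it under scaling by library total (-0.07, adjusted p = 0.275).

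The list of 14 disc-linked cytoskeleton genes also held a nuclear envelope gene, Tmem43. Of the 14, 2 were higher and 0 lower in edgeR, against 4.41% and 4.34% of all genes tested. At an unadjusted p under 0.05 there were 5, against 25.8% of all genes, and the median was 0.15. Tln1 encodes talin 1, which couples integrins to actin, and rose from 139 ± 5.54 CPM in WT hearts to 170 ± 13.4 (SD; log2 fold change 0.29, SE 0.06, edgeR adjusted p = 0.00839), with WT and KI values that did not overlap. Tmem43, a nuclear envelope gene mutated in a human arrhythmogenic cardiomyopathy, rose from 24.2 ± 1.97 CPM in WT hearts to 29.7 ± 2.44 (SD; 0.30, SE 0.07, adjusted p = 0.0174). Both kept their calls in 12 of 12 fits that left out 1 library and under scaling by library total (0.44 for Tln1 and 0.45 for Tmem43).

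Of the 9 genes of the complex that degrades beta-catenin, edgeR called 0, with 2 at an unadjusted p under 0.05 and a median of -0.08 (0.07 when scaled by library total). Csnk1a1, the most abundant, which encodes casein kinase 1 alpha, was at 184 ± 7.39 CPM in WT and 177 ± 10.2 CPM in KI (SD; -0.05, SE 0.05, adjusted p = 0.549). Of 16 partner and target genes of beta-catenin, 2 were higher and 1 lower, with 6 at an unadjusted p under 0.05. Over all genes tested these shares were 4.41%, 4.34% and 25.8%. Pygo1, which encodes a Pygopus coactivator of beta-catenin, fell from 29.7 ± 3.33 to 21.3 ± 1.77 CPM (SD; -0.48, SE 0.08, edgeR adjusted p = 0.00477) with no overlap of the groups. Nkd2, a negative regulator of Wnt signalling, rose from 1.77 ± 0.35 CPM in WT hearts to 3.94 ± 1.63 (SD; 1.15, SE 0.27, adjusted p = 0.0212), and Apcdd1, a membrane inhibitor of Wnt signalling, from 3.05 ± 0.43 to 4.74 ± 1.40 CPM (SD; 0.64, SE 0.17, adjusted p = 0.0375). Pygo1 and Nkd2 kept their calls in 12 of 12 fits that left out 1 library and Apcdd1 in 4 (highest adjusted p 0.0766, without WT 6). With KI 1, 2 and 6 alone against WT, edgeR called 0 genes of each of these 7 lists. That fit called few genes at all, 0.426% of all genes higher and 0.138% lower.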

How the data were processed

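RNA from 6 WT and 6 KI hearts was sequenced with a stranded kit for messenger RNA, per the labels' protocols. Reads were trimmed with cutadapt 2.5, aligned with STAR 2.7.2b and counted with featureCounts 1.6.4, per the submitters' processing notes. The authors deposited unnormalized expected counts: per the file headers, the authors counted reverse-strand reads over whole RefSeq gene spans on GRCm38.p6, introns included, and split reads with several alignments or genes as fractions. The counts were rounded to 0 decimals, filtered with filterByExpr (minimum count 10, minimum total 15), scaled by TMM and compared with the edgeR 4.0.16 quasi-likelihood test (R 4.3.3, no covariates), with Benjamini-Hochberg adjustment over 15602 genes and a threshold of 0.05. Fold changes are KI over WT, and log2 CPM used a prior count of 2. Ratios of counts were compared by two-sided exact permutation tests, and pairs of genes by 100000 permutations. Mir7090, inside Ctnnb1, was the 1 gene that overlaps a member on its strand, with at most 2 counts in a library. The alternatives were other scalings, filters and tools (DESeq2 1.42.0, limma 3.58.1), a block on the replicate number, libraries left out, and, added after the data were seen, unrounded counts and the KI subsets compared with and without KI 6. The fit was tested on simulated data. The members and gene lists were chosen with earlier results of these data known. Genes singled out were Lemd2, all 10 members, up to 3 genes per list past the threshold with the smallest adjusted p (or the most abundant where 0 passed), up to 5 pairs, and marker genes past the threshold or defining a cell type. Every library had Xist at 6.5 counts or less and Y-linked genes at 4790 or more, so all 12 came from males.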

Additional observations from a re-analysis of the deposited data

Results flagged for a closer look

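The Pkp2 to Dsp ratio of WT 1, at 0.162, stood far from the other WT libraries, of which the next highest was at 0.130 and the lowest at 0.115. It lay beyond 95% of such gaps in groups of 6. WT 1 also had the lowest Dsp of the 12 libraries (1014 CPM) and the highest WT value of Pkp2 (164 CPM). Of the 32 groups of 6 values so examined, for the 10 genes, Lemd2 and the 5 ratios, this was the 1 that stood apart, while chance alone gives about 1 in 20.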

How the results depend on the processing

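Members called lower were 0 over all libraries, 1 with DESeq2 and 1 with voom, 2 with only KI 3 to 5, and 0 to 1 in the fits that left out 1 library. Members called higher were 0 except 3 under scaling by library total, which moves the median of all genes. Reversed in sign under that scaling were Pkp2 (0.128), Cdh2 (0.0897), Ctnna3 (0.0141) and Tjp1 (0.0339). Other reversals were Pkp2 without KI 6 (-0.0383 to 0.0157 over the fits that left out 1 library), Jup with voom (-0.00471), with only KI 3 to 5 (-0.0382) and without WT 1 (-0.000136 to 0.0509), Cdh2 without KI 3 to 5 (0.0431) and Ctnna3 without KI 3 to 5 (0.0186), and the cause was not tested. The Ctnna3 to Ctnna1 log2 ratio difference was 0.106 without KI 3 to 5 and ranged from -0.163 to 0.0297 with 1 library left out, and that of Dsc2 to Dsg2 was 0.0546 with only KI 3 to 5 and ranged from -0.0704 to 0.0703. All genes called higher, 688, became 2957 under scaling by library total, 220 with the replicate block, 68 without KI 3 to 5 and 390 to 714 with 1 library left out. All genes called lower, 677, became 191 under scaling by library total, 1067 with DESeq2, 1265 with voom, 212 with the replicate block, 22 without KI 3 to 5, 1195 with only KI 3 to 5 and 338 to 833 with 1 library left out. The replicate numbers did not pair the libraries, since same-numbered WT and KI libraries deviated from their group means with correlations of -0.28 to 0.04 and 0 of 6 matched best with its own number. With the block, 0 members were called in edgeR, 1 had an unadjusted p under 0.05, and Cxadr was at -0.35 (adjusted p = 0.0766). Of the genes called over all libraries, Tln1 (0.0476) and Pygo1 (0.0222) stayed under the threshold with the block, and Lemd2 (0.0889), Kcnj2 (0.0718), Tmem43 (0.0630), Nkd2 (0.0892), Ctnnal1 (0.0852), Apcdd1 (0.0844), Jam2 (0.126) and Tmem65 (0.139) did not.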
